A study of Mus musculus with 30 samples.

Results

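The erythroid and hemoglobin genes examined here are 7 genes used by developing red blood cells: the adult α-globin genes Hba-a1 and Hba-a2, the adult β-globin genes Hbb-bs and Hbb-bt, the heme synthesis enzyme gene Alas2, and the red cell membrane genes Slc4a1 and Epb42. They were chosen by symbol, and all 7 had a row among the 39676 genes counted. RNA was measured in 30 whole subcutaneous tumors, taken from female C57BL/6 mice 8 days after inoculation. They were 10 control tumors (B16.GFP.gB.luc, labelled B16-GFP), 10 that made IFNα4 (B16.IFNα4.gB.luc, labelled B16-IFNA4) and 10 that made IFNα9 (B16.IFNα9.gB.luc, labelled B16-IFNA9), called GFP, IFNα4 and IFNα9 tumors hereafter. The tumor cells were B16-F10 melanoma cells transduced in sequence with retroviral vectors for murine IFNα4 with enhanced GFP, murine IFNα9 with enhanced GFP or an empty GFP control, then with herpes simplex virus glycoprotein B (gB) and a cyan fluorescent protein, and then with firefly luciferase (luc) and puromycin resistance. The control tumors thus carried gB, luciferase, both fluorescent proteins and the drug resistance as well. The lines were sorted for GFP+ CFP+ cells and selected in puromycin, so the transgenes were expressed by the tumor cells and the blood, vessels and stroma came from the host. Mice in the study were as a rule 8 to 12 weeks old, the labels do not give the age of these ones, and the cohort or date of each tumor was not given in the sources used here.

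Adult hemoglobin is a tetramer of α and β chains that each hold a heme, and red cells make it in the bone marrow and spleen before they lose their nucleus. Young red cells (reticulocytes) still carry globin mRNA when they enter the blood, so blood in a tissue brings globin transcripts with it. Alas2 encodes the erythroid form of the enzyme that starts heme synthesis. Slc4a1 encodes band 3, the anion exchanger of the red cell membrane, and Epb42 encodes protein 4.2, which binds band 3 to the membrane skeleton. In a whole tumor, fewer cells of a type and less RNA per cell cannot be told apart.

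The α-globin genes lie on chromosome 11 (Hba-a1 at chr11:32283511-32284465 and Hba-a2 at chr11:32296489-32297298, plus strand) and the β-globin genes on chromosome 7 (Hbb-bs at chr7:103826534-103828096 and Hbb-bt at chr7:103812524-103813996, minus strand), by the GENCODE M21 annotation of GRCm38. Alas2 spans chrX:150547375-150570638 on the plus strand, Slc4a1 spans chr11:102348824-102366203 and Epb42 spans chr2:121017891-121037072, the last of these on the minus strand like Slc4a1. All 7 are protein-coding. The members of each globin pair are nearly the same transcript, which limits what reads of 50 bases can tell. The coding sequences of Hba-a1 and Hba-a2 differed in 1 of 426 bases (C381T) and those of Hbb-bs and Hbb-bt in 1 of 441 bases (C417T), with positions counted from 1 at the A of the start codon. The 50 coding bases around each difference are shown, with the base that differs in capitals.
Hba-a1, positions 356 to 405: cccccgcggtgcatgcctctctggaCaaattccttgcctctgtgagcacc
Hba-a2, positions 356 to 405: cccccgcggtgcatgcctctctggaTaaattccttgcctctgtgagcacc
Hbb-bs, positions 392 to 441: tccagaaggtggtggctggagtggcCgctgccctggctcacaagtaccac
Hbb-bt, positions 392 to 441: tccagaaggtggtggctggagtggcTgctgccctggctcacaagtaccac

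Of all stretches of 50 bases in the annotated transcripts, 72.3% of those of Hba-a1 and 89.3% of those of Hba-a2 occurred in the other member, as did 53.2% of those of Hbb-bs and 58.3% of those of Hbb-bt. Alas2, Slc4a1 and Epb42 shared no stretch of 50 bases with another gene. The handling of reads that fit several places was not given in the sources used here, so the values of the 4 globin genes are those of their pair as much as of each gene. The count of Hba-a1 was 1.002 to 1.037 times that of Hba-a2 in every tumor. Alas2 lies within the span of Apex2, a DNA repair gene on the other strand, and whether the counting used strand was not given. Apex2 itself did not pass the test between tumor types (log2 fold change -0.07 ± 0.11 SE, adjusted p = 0.607 in IFNα4 and -0.12 ± 0.11, adjusted p = 0.358 in IFNα9 against GFP tumors, edgeR).

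The 150 bases before the RefSeq start of 4 members are given next (RefSeq, GRCm38.p6), since these members moved together in the tumors. RefSeq windows were found for 6 of the 7 members, and the GENCODE starts of Hba-a1, Hbb-bs, Hbb-bt and Alas2 lie somewhat further upstream. Capitals mark matches on either strand to 5 short motifs: AGATAA and TGATAA, which GATA factors bind, CACCC, which Krüppel-like factors bind, CCAAT, and the TATA motif TATAA. A match to 1 motif may share letters with a match to another or to its own reverse complement, and in Hbb-bt CCAAT and its reverse complement abut.
Hba-a2, chr11:32296342-32296491, plus strand: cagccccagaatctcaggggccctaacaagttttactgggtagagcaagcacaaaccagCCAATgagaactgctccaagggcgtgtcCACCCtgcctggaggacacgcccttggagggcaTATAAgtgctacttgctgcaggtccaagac
Hbb-bs, chr7:103827929-103828078, minus strand: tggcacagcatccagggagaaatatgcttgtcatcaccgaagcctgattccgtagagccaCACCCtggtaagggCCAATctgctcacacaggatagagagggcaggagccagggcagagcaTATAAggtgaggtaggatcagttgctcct
Hbb-bt, chr7:103813924-103814073, minus strand: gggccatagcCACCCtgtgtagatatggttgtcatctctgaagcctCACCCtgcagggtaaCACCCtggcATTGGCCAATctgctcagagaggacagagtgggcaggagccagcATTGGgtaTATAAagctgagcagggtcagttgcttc
Alas2, chrX:150547267-150547416, plus strand: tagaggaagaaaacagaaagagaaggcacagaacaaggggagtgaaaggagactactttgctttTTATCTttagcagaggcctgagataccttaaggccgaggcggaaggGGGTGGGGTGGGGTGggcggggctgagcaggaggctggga

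The windows of Hba-a1 and Hba-a2 share a run of 297 of their 300 bases, whereas the longest run that the Hbb-bs and Hbb-bt windows share is 14 bases. Each of the 3 globin promoters shown holds the CCAAT motif, the TATA motif and at least 1 CACCC motif. In the bases shown, CACCC comes before the CCAAT motif in Hbb-bs and Hbb-bt and after it in Hba-a2. The TATAA match begins 30 bases before the start in Hba-a2, 29 in Hbb-bs and 28 in Hbb-bt. Alas2 has AGATAA on the minus strand 86 bases before the start and 3 CACCC matches on that strand, and no CCAAT match. Further upstream than the bases shown, Hba-a2 has TGATAA at -186 and a CACCC match at -170, which lies before its CCAAT motif. Hbb-bs has AGATAA at -210, all counted from the start. In the 250 bases before the start, AGATAA occurred in 9.99% of 32851 RefSeq promoters, TGATAA in 7.94%, CACCC in 52%, CCAAT in 33.8% and TATAA in 22.8%. These matches describe letters in a window, not bound sites.

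The comparison of IFNα4 and IFNα9 tumors with GFP tumors asks how the transcripts that mark red cells differed with the interferon that the tumor cells made. Globin transcripts and Alas2 were lower in both interferon tumor types. Values are in CPM, reads of a gene for every 1000000 reads counted, scaled between libraries by TMM, a method that sets the scale from the bulk of genes. Total counts per tumor ran from 14598517 to 19788383, and with at least 512 counts of each globin gene in each tumor their counting error was far below the spread between tumors. In GFP tumors, Hbb-bs ran from 124.1 CPM to 753.2 CPM with a median of 275.5 CPM. In IFNα4 tumors, it ran from 45.82 to 233.6 CPM with a median of 66.24 CPM. In IFNα9 tumors, it ran from 34.74 to 158.1 CPM with a median of 64.02 CPM. Hbb-bs was highest in GFP tumors 3 and 7, and 8 of the 10 IFNα4 tumors and 9 of the 10 IFNα9 tumors lay below the lowest GFP tumor. The tumors that overlapped with GFP tumors were IFNα4 tumors 4 and 8 and IFNα9 tumor 6. The mean of Hbb-bs was 334.8 ± 208.3 CPM in GFP, 89.01 ± 60.51 CPM in IFNα4 and 73.14 ± 37.7 CPM in IFNα9 tumors (SD, n = 10 each), or 3.76-fold and 4.58-fold higher in GFP tumors.

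Hba-a1 followed the same pattern. It ran from 156.8 to 838.8 CPM (median 282.1) in GFP, from 49.16 to 233.6 CPM (median 64.57) in IFNα4 and from 32.45 to 164.9 CPM (median 68.57) in IFNα9 tumors. Its mean was 4.13-fold higher in GFP than in IFNα4 tumors and 4.87-fold higher than in IFNα9 tumors. The same tumors were highest in each type as for Hbb-bs. Hba-a2 had a mean of 364.6 ± 243.7 CPM in GFP tumors, against 88.32 ± 59.82 CPM in IFNα4 and 75.08 ± 41.54 CPM in IFNα9 tumors. Hbb-bt had a mean of 270.6 ± 164.6 CPM in GFP, 73.58 ± 49.9 CPM in IFNα4 and 60.48 ± 31.16 CPM in IFNα9 tumors. Together the 4 globin genes took 0.0593% to 0.257% of all counts in GFP tumors, 0.0181% to 0.0909% in IFNα4 and 0.0135% to 0.0639% in IFNα9 tumors.

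Alas2 was far less abundant and changed in the same direction. It ran from 3.823 to 18.27 CPM (median 8.426) in GFP, from 1.61 to 8.594 CPM (median 2.442) in IFNα4 and from 0.5869 to 5.12 CPM (median 1.86) in IFNα9 tumors. Of the 10 tumors of each type, 7 IFNα4 and 8 IFNα9 tumors lay below the lowest GFP tumor. GFP tumor 3, IFNα4 tumor 4 and IFNα9 tumor 6 were again the highest of their types.

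**Figure D1:**
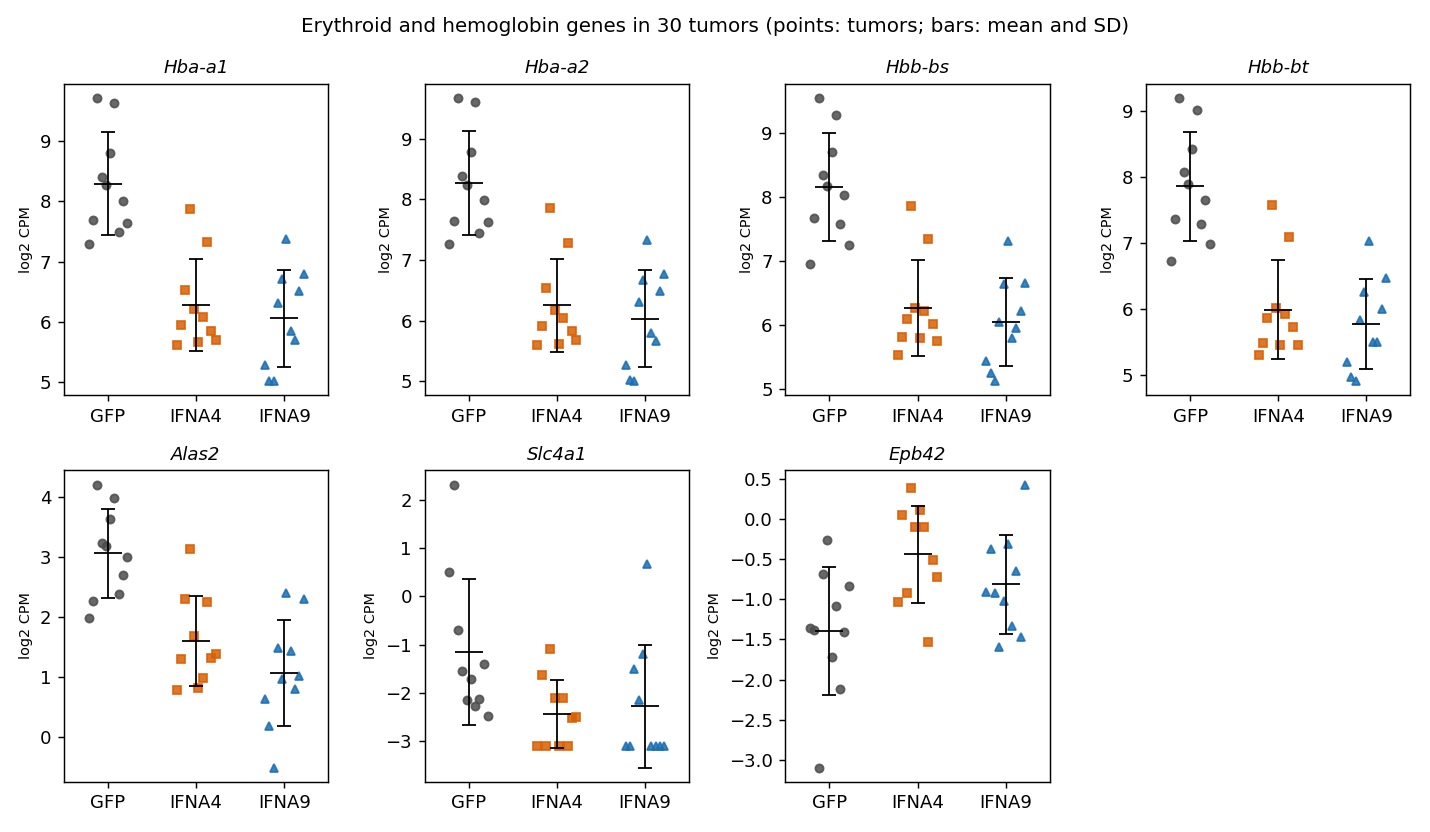
Level of each gene in each tumor as log2 CPM with a prior count of 2 (vertical axis, its range set for each gene), by tumor type (horizontal axis); bars are the mean and SD of 10 tumors. The 4 globin genes and Alas2 are lower in both interferon types, while Slc4a1 is spread by a few high tumors and Epb42 is not lower.

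All 5 members that averaged 10 or more counts a tumor, the filter on low counts, were differentially expressed genes (DEGs), with an adjusted p under 0.05 over 15926 genes in edgeR's quasi-likelihood test, and the other 2, Slc4a1 and Epb42, did not pass that filter. In IFNα4 against GFP tumors, 5 of 5 were lower and 0 higher, where 34.1% of all genes tested were lower and 31.3% higher. Their log2 fold changes were -2.05 ± 0.364 (SE, adjusted p = 1.65e-05) for Hba-a1, -2.04 ± 0.365 (adjusted p = 1.71e-05) for Hba-a2 and -1.91 ± 0.345 (adjusted p = 2.01e-05) for Hbb-bs. Hbb-bt differed by -1.88 ± 0.341 (adjusted p = 2.19e-05) and Alas2 by -1.46 ± 0.351 (adjusted p = 0.000628). The median of the 5 was -1.91, beside a median of 0.0092 over all genes tested.

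In IFNα9 against GFP tumors, 5 of 5 were again lower and 0 higher, where 28.9% of all genes tested were lower and 26.9% higher. The log2 fold changes were -2.28 ± 0.367 (adjusted p = 7.46e-06) for Hba-a1, -2.19 ± 0.348 (adjusted p = 6.1e-06) for Hbb-bs and -1.96 ± 0.359 (adjusted p = 4.01e-05) for Alas2. Hba-a2 had -2.28 and Hbb-bt -2.16. The median of the 5 was -2.19, beside -0.0031 over all genes tested. Both comparisons share the 10 GFP tumors. No member was lower in every tumor of an interferon type than in every GFP tumor, which held for 10.0% of all genes tested in IFNα4 and 3.35% in IFNα9 tumors. The 4 globin rows hold the counts of 2 near-identical pairs, so the 5 calls are not 5 separate measurements.

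IFNα9 and IFNα4 tumors were not told apart by the levels of these genes. Of the 5, 0 were DEGs by edgeR or by DESeq2 and 0 had an unadjusted p under 0.05, where 7.25% of all genes tested were lower in IFNα9 tumors and 10.5% higher. The log2 difference of Hbb-bs was -0.28 ± 0.335 (SE, adjusted p = 0.616) and that of Alas2 was -0.50 ± 0.356 (adjusted p = 0.362), so with these errors a difference of moderate size in either direction for Hbb-bs cannot be told from none. Without IFNα4 tumor 4, the difference of Hbb-bs was 0.004.

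**Figure D2:**
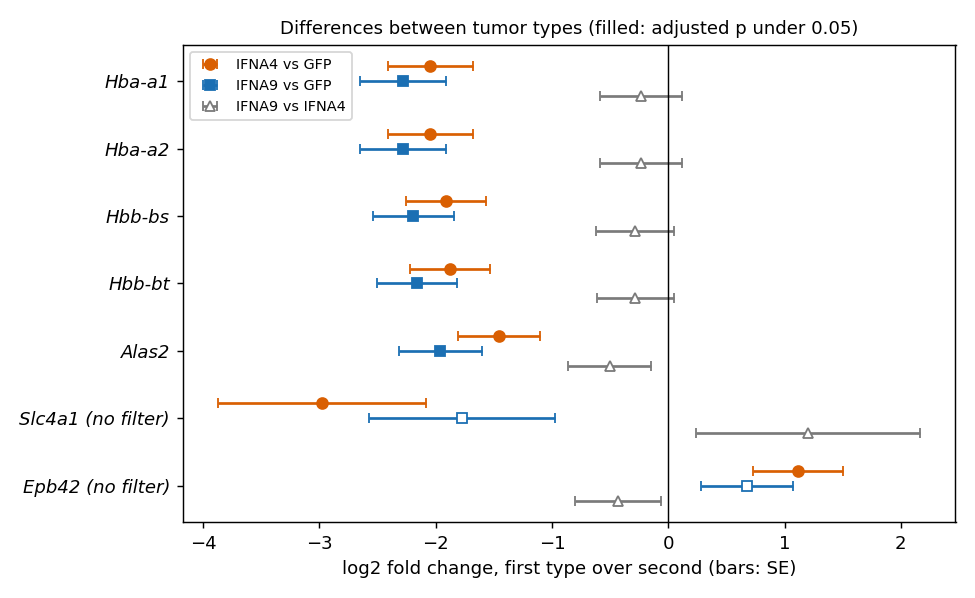
Log2 fold change of each gene (horizontal axis) with its SE in the 3 comparisons, with filled symbols for an adjusted p under 0.05 in edgeR. The 5 genes at the top lie between -2.28 and -1.46 in both comparisons with GFP tumors and between -0.50 and -0.23 between the interferon types. Slc4a1 (-2.98 and -1.77) and Epb42 (1.11 and 0.68) were fitted without the filter on low counts.

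The high tumors weighed on the size but not on the call. GFP tumors 7 and 3 also had the lowest TMM factors of the 30 libraries (0.768 and 0.856, against up to 1.097), so part of their height came with the scaling. Scaled by library totals alone, the log2 fold change of Hbb-bs was -1.76 in IFNα4 and -2.03 in IFNα9 tumors. Without GFP tumors 3 and 7, an alternative added after the data were seen, the log2 fold change of Hbb-bs was -1.46 (adjusted p = 0.000262) in IFNα4 and -1.75 (adjusted p = 5.01e-05) in IFNα9 tumors, and that of Alas2 was -1.11 (adjusted p = 0.00677) and -1.62 (adjusted p = 0.000367).

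Slc4a1 and Epb42 had too few counts for the filter, and their tests come from a fit of all genes with at least 1 count. Slc4a1 had 1 to 91 counts in GFP tumors (median 3.5), 0 to 6 in IFNα4 (median 1) and 0 to 28 in IFNα9 tumors (median 0). The GFP range was set by tumors 1 and 2, with 24 and 91 counts, and not by tumors 3 and 7, which were highest for the globins and had 8 and 1 counts. Slc4a1 was lower in IFNα4 than in GFP tumors in that fit (log2 fold change -2.98 ± 0.894 SE, adjusted p = 0.00749), and no longer without GFP tumor 2 (-1.73, adjusted p = 0.104). In IFNα9 tumors the log2 fold change was -1.77 ± 0.800 (adjusted p = 0.0896). It was -3.24 (adjusted p = 0.00378) without IFNα9 tumor 6 and 0.17 (adjusted p = 0.913) without GFP tumors 1 and 2.

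The 3 tumors with the most Slc4a1 counts also held hair follicle transcripts. Krt72, a keratin of the inner root sheath of the hair follicle, had 2058 and 8131 counts in GFP tumors 1 and 2, at most 8 in the other GFP tumors and 0 in each IFNα4 tumor, and 389 and 418 in IFNα9 tumors 5 and 6. Krt25, another keratin of that sheath, had 12629 and 46827 counts in GFP tumors 1 and 2. In IFNα9 tumors 3, 4, 5 and 6, Krt25 had 1173, 373, 2202 and 6065 counts and Slc4a1 had 4, 2, 6 and 28, while the other 6 IFNα9 tumors had at most 32 counts of Krt25 and 0 of Slc4a1. The match was not complete, since GFP tumor 3 had 8 Slc4a1 counts with 22 of Krt25, and IFNα4 tumor 4 had 6 with 28. The part of skin in the Slc4a1 values was not tested.

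Epb42 went the other way. It had 0 to 13 counts in GFP tumors (median 4.5), 4 to 20 in IFNα4 (median 12) and 4 to 20 in IFNα9 tumors (median 7), and the types overlapped. Its log2 fold change was 1.11 ± 0.387 (SE, adjusted p = 0.0211) in IFNα4 and 0.68 ± 0.394 (adjusted p = 0.197) in IFNα9 against GFP tumors. GFP tumor 3, the highest for the globins, had no Epb42 count. Per kilobase of annotated exons, Hbb-bs stood at a mean of 435.9 CPM, Alas2 at 3.839 CPM, Slc4a1 at 0.1578 CPM and Epb42 at 0.05754 CPM in GFP tumors.

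Within each tumor type, the globins and Alas2 rose and fell together from tumor to tumor. Over 10 tumors, log2 CPM of Hbb-bs and Hba-a1, which share no stretch of 50 bases, had a Pearson r of 0.981 in GFP (adjusted permutation p = 4.5e-05, Spearman rho 0.988), 0.972 in IFNα4 (adjusted permutation p = 0.000346, rho 0.939) and 0.979 in IFNα9 tumors (adjusted permutation p = 4.5e-05, rho 0.988). Without the 2 tumors farthest from the median of Hba-a1, r was 0.961, 0.766 and 0.966. Hbb-bs and Alas2 had r of 0.916 (adjusted permutation p = 0.000773, rho 0.915), 0.851 (adjusted permutation p = 0.00498, rho 0.733) and 0.852 (adjusted permutation p = 0.00426, rho 0.855), in the same order. Without the 2 tumors farthest from the median of Hbb-bs, those values were 0.802, 0.512 and 0.697. In IFNα4 tumors the relation thus rests in large part on tumors 4 and 8. P-values were adjusted over 63 relations, for 21 pairs and 3 types, and 1e-05 is the smallest unadjusted p that 100000 resamples can give.

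Neither Slc4a1 nor Epb42 followed Hbb-bs detectably from tumor to tumor. Hbb-bs and Slc4a1 had r of -0.25 in GFP (adjusted permutation p = 0.588), 0.43 in IFNα4 (adjusted permutation p = 0.363) and 0.57 in IFNα9 tumors (adjusted permutation p = 0.171). Hbb-bs and Epb42 had r of -0.36, 0.08 and 0.28, with adjusted permutation p from 0.461 to 0.863. Slc4a1 and Epb42 had r of 0.74 in IFNα4 tumors (adjusted permutation p = 0.0297) at counts of at most 6 and 20, with a rho of 0.675 that did not pass (adjusted permutation p = 0.079).

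**Figure D3:**
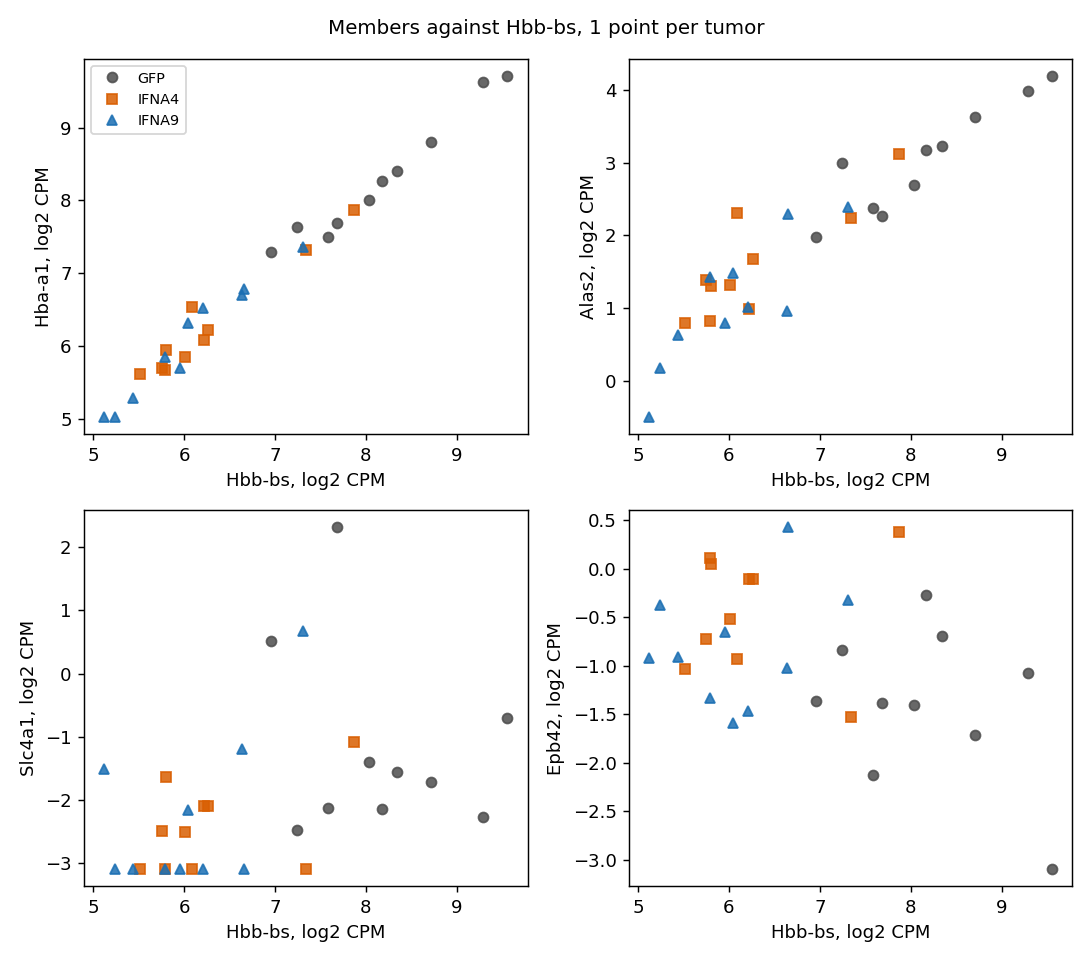
Log2 CPM of Hba-a1, Alas2, Slc4a1 and Epb42 (vertical axes) against that of Hbb-bs (horizontal axes), with 1 point per tumor and the tumor type by colour and shape. Hba-a1 and Alas2 lie along a line within each type, with r of at least 0.851, and Slc4a1 and Epb42 do not.

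The proportions between the globin genes did not differ detectably between tumor types. The count of Hbb-bt was 0.763 to 0.857 times that of Hbb-bs in GFP, 0.792 to 0.858 times in IFNα4 and 0.729 to 0.880 times in IFNα9 tumors. The count of Hba-a1 was 0.939 to 1.308 times that of Hbb-bs in GFP, 0.895 to 1.360 times in IFNα4 and 0.840 to 1.237 times in IFNα9 tumors. Neither proportion differed between types by a two-sided permutation test (adjusted p from 0.309 to 0.972 over 18 tests added after the data were seen). The log2 ratio of Alas2 to Hbb-bs was -5.13 ± 0.341 in GFP, -4.73 ± 0.421 in IFNα4 and -5.07 ± 0.515 in IFNα9 tumors (SD, n = 10 each). It was 0.39 higher in IFNα4 than in GFP tumors, which did not pass after adjustment (permutation p = 0.0323, adjusted p = 0.0968).

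Outside the 7, the embryonic globin genes and the red cell regulators Klf1 and Gata1 were scarce. The embryonic globin genes Hba-x, Hbb-y, Hbb-bh0 and Hbb-bh2 had 0 counts in every tumor and Hbb-bh1 had at most 1 count. Klf1, the erythroid Krüppel-like factor, had at most 11 counts, with means of 0.283, 0.154 and 0.300 CPM in GFP, IFNα4 and IFNα9 tumors. Gata1, which megakaryocytes, mast cells and eosinophils also use, had at most 15 counts, with means of 0.218, 0.599 and 0.489 CPM. Klf1 and Gata1 were thus near 0 in all 3 types, and the label of the 7 genes as erythroid rests here on the globins and Alas2. The embryonic globins, as genes of the embryo, were not used as markers of red cell precursors in these adult mice.

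Of 17 genes of the erythrocyte membrane and skeleton, 16 had a row and 10 of those passed the filter. In IFNα4 against GFP tumors, 3 were higher and 2 lower (median log2 fold change 0.287), and in IFNα9 against GFP tumors, 3 were higher and 0 lower (median -0.175). Counts for these lists stand beside 31.3% higher and 34.1% lower of all genes tested in IFNα4 and 26.9% higher and 28.9% lower in IFNα9 tumors. Gypc, glycophorin C, was higher in both (0.76 ± 0.0984 SE, adjusted p = 9.88e-08, and 0.53 ± 0.0982, adjusted p = 4.83e-05). Rhd, of the Rhesus complex, was lower in IFNα4 tumors (-1.59 ± 0.261, adjusted p = 5.25e-06). The counts of Sptb, β-spectrin, and Ank1, ankyrin, which muscle also expresses, were lower in IFNα9 than in IFNα4 tumors (-1.10 and -0.89), the comparison in which 7 of 8 skeletal muscle genes were lower.

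Of 11 genes of heme synthesis, 9 had a row, and all 9 passed the filter. In IFNα4 against GFP tumors, 4 were lower and 1 higher (median -0.021), and in IFNα9 against GFP tumors, 2 were lower and 1 higher (median -0.157). Ppox, protoporphyrinogen oxidase, was higher in both (0.49 ± 0.0979 SE, adjusted p = 8.16e-05, and 0.64 ± 0.098, adjusted p = 3.29e-06). Alas1, the form of the first enzyme that all cells use, had log2 fold changes of -0.02 ± 0.075 (adjusted p = 0.816) and -0.16 ± 0.075 (adjusted p = 0.0732), against -1.46 and -1.96 for Alas2. Most of these enzymes are made by every cell, the tumor cells included.

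Among 10 erythroid regulators, 7 passed the filter, with 3 higher and 2 lower in each comparison with GFP tumors (medians 0.058 and 0.124). Epor, the erythropoietin receptor, was lower (-1.36 ± 0.348 SE, adjusted p = 0.00117 in IFNα4 and -0.91 ± 0.339, adjusted p = 0.0236 in IFNα9 tumors), and so was Tal1, which endothelium also expresses (-0.58 and -0.98). Bcl11a, a repressor of fetal globin that B cells and dendritic cells also use, was higher (0.94 and 1.02), as was Lmo2 (0.93 and 0.75). Of 10 late erythroid genes tested, 6 were lower and 3 higher in IFNα4 (median -0.443) and 5 lower and 3 higher in IFNα9 tumors (median -0.225), where 34.1% and 28.9% of all genes tested were lower. Slc25a39, a mitochondrial carrier, was lower (-1.29 and -1.22), while Hemgn, hemogen, and Car2, carbonic anhydrase 2, were higher (1.63 and 2.67, and 1.62 and 1.16). Hemgn had at most 31 counts in any tumor.

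The question of bleeding or blood supply was addressed with lists of vessel, platelet, clotting, and heme clearance and iron genes. Most endothelial genes were lower along with the globins. Of 23 endothelial genes tested, 17 were lower and 1 higher in IFNα4 (median log2 fold change -0.772), and 18 were lower and 0 higher in IFNα9 tumors (median -1.11), each against GFP tumors, where 34.1% and 28.9% of all genes tested were lower. Cdh5, which encodes the endothelial junction protein VE-cadherin, fell from 68.36 ± 18.75 CPM in GFP to 38.12 ± 7.42 CPM in IFNα4 and 24.01 ± 9.292 CPM in IFNα9 tumors (SD, n = 10 each). Its log2 fold changes were -0.84 ± 0.183 (SE, adjusted p = 0.000202) and -1.51 ± 0.186 (adjusted p = 1.02e-07). Pecam1, the endothelial adhesion molecule CD31, changed by -0.43 and -0.99. Esm1, a marker of sprouting tip cells, changed by -2.32 and -3.25, Emcn, endomucin, by -1.32 and -1.71, and Aplnr, the apelin receptor, by -0.99 and -2.23. Kdr, the VEGF receptor VEGFR2, was the endothelial gene higher in IFNα4 tumors, at 1.35 ± 0.157 (adjusted p = 1.6e-08) in IFNα4 and -0.004 ± 0.155 in IFNα9 tumors. Vwf, von Willebrand factor, was lower in IFNα4 (-0.77 ± 0.142, adjusted p = 2.65e-05) and at -0.09 ± 0.141 (adjusted p = 0.597) in IFNα9 tumors.

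Between the interferon types, some vessel genes were lower in IFNα9 tumors, and the 5 members tested had log2 fold changes below 0 that did not pass the test. In IFNα9 against IFNα4 tumors, 9 of 23 endothelial genes were lower and 1 higher (median -0.517, beside 7.25% lower and 10.5% higher of all genes tested), with the lower ones including Cdh5 (-0.67 ± 0.183 SE, adjusted p = 0.0109) and Pecam1 (-0.56 ± 0.130, adjusted p = 0.00284). Of 9 pericyte and vessel wall genes, 4 were lower and 1 higher in IFNα4 (median -0.098) and 6 lower and 0 higher in IFNα9 against GFP tumors (median -0.737), so the count in IFNα4 tumors was near the share of all genes. Rgs5, a pericyte gene, changed by -1.90 ± 0.172 (adjusted p = 9.45e-11) and -2.23 ± 0.174 (adjusted p = 9.62e-12), and Higd1b by -1.43 and -1.92. Vegfa, the main ligand of Kdr, was at 200.1, 200.4 and 199.8 CPM in GFP, IFNα4 and IFNα9 tumors. Among the other 4 angiogenic ligands tested, Vegfb was lower (-1.23 and -0.85) and Vegfd higher (0.91 and 0.78).

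Hbb-bs fell by more than the mean of the endothelial genes, though Esm1 fell by more than any globin gene. Per tumor, log2 CPM of Hbb-bs minus the mean log2 CPM of the 23 endothelial genes was 3.61 ± 0.756 in GFP, 2.36 ± 0.781 in IFNα4 and 2.60 ± 0.692 in IFNα9 tumors (SD, n = 10 each). Against GFP tumors this quantity differed by -1.25 in IFNα4 (two-sided permutation test, p = 0.00223, adjusted p = 0.0201) and by -1.01 in IFNα9 tumors (permutation p = 0.00612, adjusted p = 0.0253), and did not differ between the interferon types beyond its spread (permutation p = 0.464). These tests were added after the data were seen, and the endothelial mean is of levels that also differed between types.

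From tumor to tumor within a type, no relation of Hbb-bs with the vessel genes passed the test over all 10 tumors. With the endothelial mean, r was 0.45 in GFP (adjusted permutation p = 0.43, rho 0.455), -0.05 in IFNα4 (adjusted permutation p = 0.971, rho -0.067) and 0.22 in IFNα9 tumors (adjusted permutation p = 0.817, rho 0.212). Without the 2 tumors farthest from the median of the endothelial mean, these were 0.24, -0.64 and 0.39, so the values depend on which tumors are left out. With the pericyte mean, r was 0.32, 0.64 and 0.01, with adjusted permutation p of 0.648, 0.333 and 0.971 and rho of 0.333, 0.430 and 0.176. Without the 2 tumors farthest from the median of the pericyte mean, r was 0.756, 0.339 and 0.868, so these values rest on those tumors. None of 18 relations, for 6 lists and 3 types, passed after adjustment, and over 10 tumors only a strong relation could have. GFP tumor 7, second highest for Hbb-bs at 627.3 CPM, had the largest excess of Hbb-bs over the endothelial mean of any tumor (5.125).

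**Figure D4:**
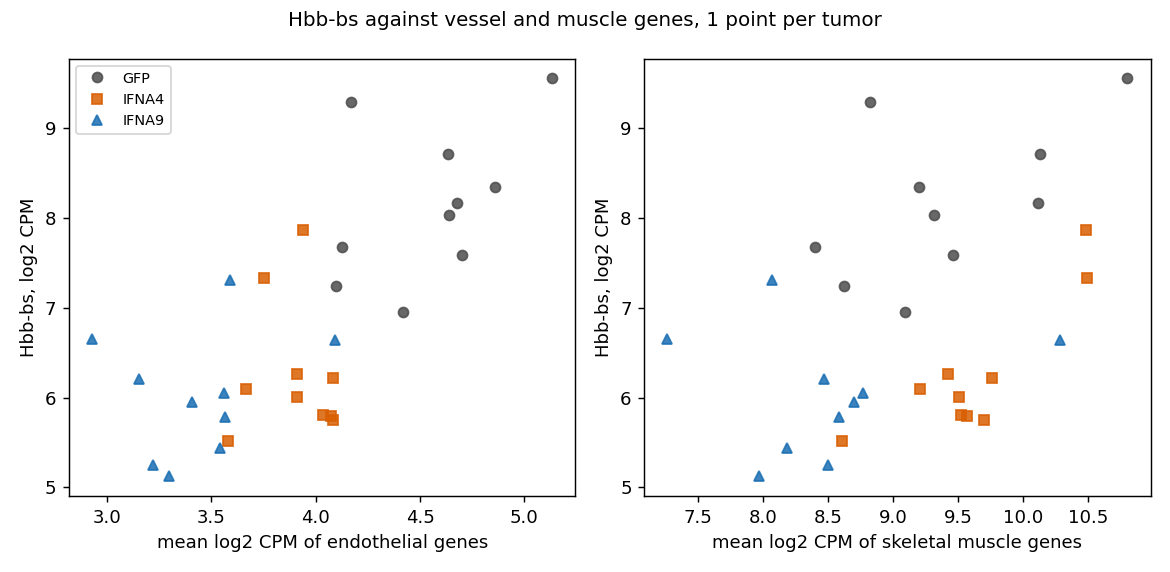
Log2 CPM of Hbb-bs (vertical axes) against the mean log2 CPM of 23 endothelial genes (left) and 8 skeletal muscle genes (right), with 1 point per tumor. In the left panel GFP tumors lie further right than the interferon tumors and mostly higher, with IFNα4 tumors 4 and 8 and IFNα9 tumor 6 above the lowest GFP tumor, and r was 0.45, -0.05 and 0.22 within GFP, IFNα4 and IFNα9 tumors.

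Of 14 platelet genes, 11 had a row and 4 of those passed the filter, and 2 were higher in IFNα4 and 1 in IFNα9 against GFP tumors, with none lower (medians 0.374 and 0.365). Itgb3, the integrin β3 subunit that macrophages and endothelium also carry, was higher in both (0.99 ± 0.103 SE, adjusted p = 1.6e-09, and 0.75 ± 0.102, adjusted p = 5.75e-07). Itga2b, its platelet partner, was at 0.45 ± 0.191 (adjusted p = 0.0395) and 0.29 ± 0.191 (adjusted p = 0.204). Pf4, platelet factor 4, which macrophages also express, was at -0.38 ± 0.176 (adjusted p = 0.0568) and -0.35 ± 0.176 (adjusted p = 0.0869). Ppbp, Gp1ba and the other platelet genes below the filter had a mean of at most 0.651 CPM in each type. Of 12 genes of coagulation and fibrinolysis, 5 were higher and 2 lower in IFNα4 and 2 higher and 1 lower in IFNα9 against GFP tumors (medians 0.465 and 0.085), beside 31.3% higher and 34.1% lower, and 26.9% higher and 28.9% lower, of all genes tested. F3, tissue factor, was lower in both (-0.62 and -0.40), Tfpi, an inhibitor of the tissue factor pathway, lower in IFNα4 tumors (-0.46), F5, factor V, higher in both (0.70 and 0.83), and Thbd, thrombomodulin, higher in IFNα4 tumors (0.60).

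Genes of hemoglobin and heme clearance and of iron handling, taken as 1 list, moved in both directions. Of 16 tested, 6 were higher and 5 lower in IFNα4 (median -0.022) and 4 higher and 4 lower in IFNα9 against GFP tumors (median 0.270). Of all genes tested, 31.3% were higher and 34.1% lower in IFNα4 and 26.9% higher and 28.9% lower in IFNα9 tumors, so these counts were near the shares of all genes. Hmox1, heme oxygenase 1, which heme induces, was lower in both (-0.79 ± 0.144 SE, adjusted p = 2.15e-05, and -0.43 ± 0.143, adjusted p = 0.0121). Cd163, the macrophage receptor for hemoglobin bound to haptoglobin, was at -0.19 ± 0.254 (adjusted p = 0.521) and 0.58 ± 0.255 (adjusted p = 0.0518), and was higher in IFNα9 than in IFNα4 tumors (0.77 ± 0.256, adjusted p = 0.0337). Tfrc, the transferrin receptor, which dividing cells and erythroblasts use to take up iron, was lower (-1.97 and -1.78). Hamp and Hamp2, of the hepcidin family, were higher (1.70 and 1.90, and 1.66 and 1.85), and whether they share reads was not tested. Within a type, Hbb-bs had r with the mean of these 16 genes of -0.14, 0.11 and -0.56 (adjusted permutation p = 0.908, 0.927 and 0.333).

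**Figure D5:**
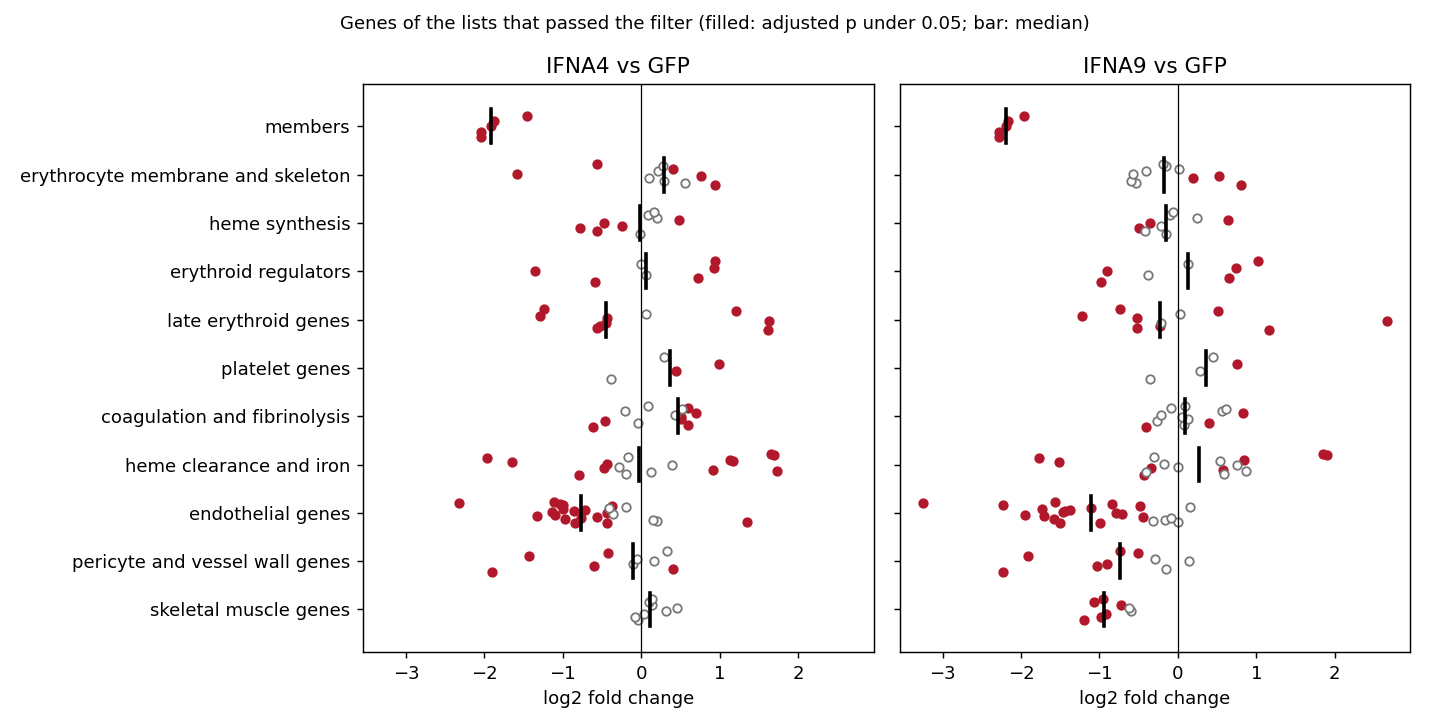
Log2 fold change against GFP tumors (horizontal axis) of each listed gene that passed the filter, with 1 row of points per list, filled for an adjusted p under 0.05 in edgeR; the bar is the median. The 5 members lie between -2.28 and -1.46, and most endothelial genes lie below 0. The other red cell lists, the platelet list and the heme clearance and iron list spread to either side of 0.

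Leukocyte and muscle RNA differed between the types as well. Ptprc, the pan-leukocyte gene CD45, had a mean of 80.56 CPM in GFP, 506.9 CPM in IFNα4 and 354.3 CPM in IFNα9 tumors (n = 10 each). Within a type, Hbb-bs had r with Ptprc of -0.55 in GFP (adjusted permutation p = 0.333, rho -0.600), -0.73 in IFNα4 (adjusted permutation p = 0.254, rho -0.503) and -0.44 in IFNα9 tumors (adjusted permutation p = 0.43, rho -0.576), below 0 in each type and past the threshold in none. Without the 2 tumors farthest from the median of Ptprc, r was -0.70, -0.56 and -0.21. Among 8 skeletal muscle genes, 0 were DEGs by edgeR in IFNα4 against GFP tumors (median 0.116), and 6 were lower in IFNα9 against GFP tumors (median -0.939). Acta1, skeletal α-actin, stood at a mean of 2012, 1962 and 879.4 CPM. In IFNα4 tumors, Hbb-bs rose with the muscle mean (r 0.849, adjusted permutation p = 0.0069), and r was 0.827 without tumors 1 and 8, the farthest from the median of the muscle mean. Without tumors 4 and 8, the highest for Hbb-bs, r was 0.488, so the relation rests in large part on those tumors, and the rank correlation did not pass (rho 0.515, adjusted permutation p = 0.202). The relation did not pass in GFP (r 0.562, adjusted permutation p = 0.137, 0.117 without the 2 farthest tumors) or IFNα9 tumors (r 0.083, adjusted permutation p = 0.827, -0.015 without them). These 3 relations were added after the data were seen. Relative to the muscle mean, log2 CPM of Hbb-bs differed from GFP tumors by -2.12 in IFNα4 (two-sided permutation p = 1e-05, adjusted p = 0.00018) and by -1.20 in IFNα9 tumors (permutation p = 0.00704, adjusted p = 0.0253), and was 0.92 higher in IFNα9 than in IFNα4 tumors (permutation p = 0.00596, adjusted p = 0.0253), the comparison in which 7 of 8 muscle genes were lower. The part of attached muscle in the globin values was not tested beyond this. The melanocyte genes tested, Tyr, Tyrp1 and Mitf, were high in all types, Tyrp1 at a mean of 9328 CPM in GFP tumors, and all 3 were lower in both interferon types. Of 7 neutrophil genes tested, 2 were higher and 3 lower in IFNα4 and 1 higher and 3 lower in IFNα9 against GFP tumors. Of 3 B cell genes tested, 2 were higher in IFNα4 and 1 in IFNα9 tumors, and 0 were lower. Among all genes tested, 31.3% were higher and 34.1% lower in IFNα4 and 26.9% higher and 28.9% lower in IFNα9 tumors. The neutrophil counts were near those shares, and 3 B cell genes are too few to set against them.

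Across all 30 tumors, after each type was centred on its mean, the non-member genes whose log2 CPM most resembled the mean of the 5 tested members were Csn3 (r 0.789), which encodes κ-casein, Gstm2 (0.773), a glutathione transferase, and Dmbt1 (0.745), a mucosal scavenger protein. Next came Krt8-ps, a keratin pseudogene (0.742), Ltf, lactotransferrin (0.727), and Wfdc2 (0.726), followed by Ndufs6b (0.699), Ndufa1 (0.689), Tmem25 (0.688) and Krt19 (0.682). None of the 10 is in a red cell list, and Csn3, Dmbt1, Krt8-ps, Ltf and Wfdc2 had 0 counts in at least 1 tumor. For Slc4a1, a list added after the data were seen, the 3 most alike were Vsig8 (0.900), Krtap28-10 (0.883) and the hair keratin gene Krt83 (0.882), with 0 counts in some tumors and up to 630, 370 and 2262 counts in a GFP tumor. For Epb42, likewise added, no gene exceeded the r of Gm44949 (0.661). These values describe likeness over 30 tumors that share depth and dissection, and carry no test.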

How the data were processed

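RNA of 30 whole tumors was sequenced from stranded mRNA libraries as single-end reads of 50 bases. The authors checked the reads with FastQC 0.11.3, aligned them with HISAT2 2.0.4 and made gene counts from the alignments with summarizeOverlaps. The submitters' processing notes name mm10 and the study's methods mm11. The annotation, the overlap mode, the strand setting and the handling of reads that fit several places were not given in the sources used here, and these could shift counts between near-identical or overlapping genes. The deposited values are raw counts per gene and tumor, with no normalization.

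Groups and replicate numbers came from the sample labels, which call the 10 tumors of a type biological replicates. Symbols were matched through GENCODE M21 for 39495 of 39676 identifiers. Counts were scaled by TMM and fitted for all 30 tumors together in edgeR 4.0.16 (R 4.3.3) with the quasi-likelihood test. Genes that averaged 10 or more counts a tumor were tested (15926), and p-values were adjusted over all of them by the Benjamini-Hochberg method. The study's own comparisons used DESeq2, which is an alternative here (1.42.0). Each standard error follows from its log2 fold change and F statistic. Log2 CPM took a prior count of 2. Relations within a type and ratios were tested by two-sided permutation over tumors with 100000 resamples. The alternatives were other scaling (RLE size factors, library totals, the members left out of the scaling), other filters, only the types compared, a replicate block, summed paralog counts, a prior count of 0.5 and each tumor left out. The fit was tested on simulated data. Sequences were read from GENCODE M21 transcripts and RefSeq promoter windows in Python 3.11.15 with pandas 2.3.3 and numpy 2.4.6, and plots were drawn with matplotlib 3.10.9.

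The members and the gene lists were chosen with earlier results of these data known. The text names all members, up to 3 DEGs of each list with the largest change in each comparison, a set of defining genes, and the 10 genes most like the members. Apex2, Krt72, Krt25 and a few others were named after their values were seen. Of the defining genes, Ahsp and Fech were not analysed here. Some genes that the rule takes are among those counted but not reported here.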

Additional observations from a re-analysis of the deposited data

Results flagged for a closer look

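Slc4a1 in IFNα9 tumor 6, at 0.67 log2 CPM from 28 counts, lay far above the other IFNα9 tumors, of which the next had -1.19 log2 CPM. Its gap was 0.494 of the range of the 10 tumors, above Dixon's critical value at the 95% level for 10 values. Most IFNα9 tumors had 0 Slc4a1 counts and so shared 1 log2 CPM value, a floor set by the prior count of 2. The range and the gap share depend on that floor, and the critical value does not strictly apply to tied values. Of 21 groups of values searched, 7 genes in 3 types, 1 was found, and chance gives about 1 in 20. Krt72 had 418 counts in that tumor, and the part of skin in its Slc4a1 value was not tested.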

How the results depend on the processing

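With the counts of Hba-a1 and Hba-a2, and those of Hbb-bs and Hbb-bt, summed before the fit, 3 rather than 5 rows of members were tested and 3 were DEGs in IFNα4 and in IFNα9 against GFP tumors, since 2 rows had been merged. The other settings gave no change of call for the 5 members tested. Hbb-bs ranged from -2.20 to -1.70 in IFNα4 and from -2.38 to -1.98 in IFNα9 against GFP tumors with each tumor left out in turn, and Alas2 from -1.73 to -1.29 and from -2.15 to -1.79. The median log2 fold change of all genes was 0.086 and 0.097 with library totals, against 0.0092 and -0.0031 with TMM. Replicate numbers did not pair the tumors (same-numbered tumors of 2 types had r from -0.267 to 0.302 in their deviations from the type means), and with the numbers as a replicate block Hbb-bs was at -1.90 (adjusted p = 4.8e-05) and -2.10 (adjusted p = 3.08e-05), with 5 members called in each. Only the Slc4a1 call depended on single tumors, since it was lost without GFP tumor 2 in IFNα4 tumors and gained without IFNα9 tumor 6 in IFNα9 tumors. Depth limits Slc4a1 and Epb42, at 0 to 20 counts in most tumors, and Epb42 rests on few counts in each tumor.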
